A study of Mus musculus with 64 samples.

Results

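Late light was compared with late dark in epididymal white adipose tissue (eWAT) of fat-specific *Nampt* knockout (FANKO) mice, to ask which transcripts differ between these times of day when adipocytes cannot make NAMPT. The comparison held the 4 FANKO eWAT samples of Zeitgeber time (ZT) 10 and the 4 of ZT 22, that is 8 of the 64 RNA-seq samples of the series, and covered all 19059 genes that passed a filter on low counts. FANKO mice carried the floxed NamptTM1Jtree allele together with Adiponectin-Cre, a transgene whose recombinase is active in adipocytes, so that other cells of the tissue keep *Nampt*. The controls (WT) were littermates without Cre. All mice were males of 2 to 4 months on a chow diet at room temperature, and ZT 0 is the time of lights on, so that ZT 10 falls late in the light phase and ZT 22 late in the dark phase, when mice are active and feed. The series also holds brown fat and eWAT of both genotypes at ZT 6, 10, 18 and 22. The labels number the samples of a group but do not say that each came from a separate animal, so the p values below measure the spread between these samples.

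NAMPT is the rate-limiting enzyme of the salvage pathway that rebuilds NAD+ from nicotinamide. The circadian clock of each cell is a transcriptional loop: BMAL1 (*Arntl*) with CLOCK or NPAS2 activates *Per*, *Cry* and *Nr1d* genes through E-boxes, PER and CRY proteins inhibit that activation, and the REV-ERB proteins encoded by *Nr1d1* and *Nr1d2* repress *Arntl*. PAR bZIP factors (DBP, TEF, HLF) and their repressor NFIL3 carry the rhythm to output genes through D-boxes. In white fat the balance of triglyceride synthesis, storage and lipolysis follows the daily alternation of feeding and fasting, and *Nampt* itself is a target of the clock.

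Values are CPM, the counts of a gene scaled to library size after TMM normalisation, and fold changes compare ZT 22 with ZT 10. Tests are quasi-likelihood F-tests of edgeR, with p values adjusted over all tested genes by the method of Benjamini and Hochberg. A gene was called at an adjusted p below 0.01. *Nampt* (chr12:32819545-32853349, + strand, GRCm38) measured 145, 130, 126 and 126 CPM in the 4 ZT 10 samples and 121, 112, 129 and 117 CPM in the 4 ZT 22 samples. The times overlapped, and the log2 change of -0.14 was not called (SE 0.11, adjusted p = 0.603, edgeR). In WT eWAT *Nampt* averaged 162 ± 17.8 CPM at ZT 10 and 184 ± 28.3 CPM at ZT 22 (SD, n = 4 each). At ZT 6 and ZT 18 it averaged 136 ± 9.04 and 285 ± 59.3 CPM in WT, against 129 ± 7.14 and 129 ± 7.60 CPM in FANKO. The counts cover the whole gene, with exons that the deletion leaves and with RNA of cells in which Cre is not active, so they do not measure the deletion itself, and *Gdap10* overlaps *Nampt* on the same strand.

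The 8 libraries held 6117343 to 22855470 assigned counts. The 10 white adipocyte markers were present in every sample and summed to 21540 to 26880 CPM at ZT 10 and 18190 to 22580 CPM at ZT 22. Both called members, the lipase gene *Lipe* and the activin receptor gene *Acvr1c*, were higher at ZT 10. Markers of epididymis, the neighbouring organ, summed to 0.630 to 6.71 CPM at ZT 10 and to 4.54, 85.1, 29.3 and 1.58 CPM in ZT 22 replicates 1 to 4. Of these 15 markers 11 were tested and none was called, 10 had an unadjusted p below 0.05 (edgeR), and *Spint4* was at 0 in all 8 samples. Skeletal muscle markers (4 of 10 tested) summed to 52.3 to 107 CPM at ZT 10 and 40.7 to 66.0 CPM at ZT 22, and endothelial markers to 604 to 728 and 707 to 844 CPM. The mitochondrial share of counts was 11.1 to 13.1% at ZT 10 and 6.11 to 14.3% at ZT 22. With all 8 samples 537 genes were called. Without ZT 22 replicates 2 and 3, which left 2 samples at that time, 190 genes were called, 182 of them among the 537. With the epididymis markers as a covariate 376 genes were called (370 among the 537), and with the skeletal muscle markers as one 430 (417 among the 537). In whole tissue, fewer cells of a type and less RNA per cell cannot be told apart.

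Of the 19059 genes, 537 were called (2.82%). Of these, 272 were higher at ZT 22 (1.43%) and 265 were higher at ZT 10 (1.39%). The median change was 0.65 on the log2 scale (1.57-fold) for the genes higher at ZT 22 and -0.72 (1.65-fold lower at ZT 22) for those higher at ZT 10, against -0.00055 over all genes. More than 2-fold changes were seen for 57 of the former and 83 of the latter, and more than 4-fold changes for 14 and 15. The 4 ZT 10 and the 4 ZT 22 samples did not overlap for 2240 genes (11.8%), among them 262 of the genes called higher at ZT 22 and 254 of those called higher at ZT 10. Protein-coding genes made up 263 of the former and 226 of the latter. By the size of the change among genes of at least 1 in mean log2 CPM and without overlap, the 10 largest rises were those of *Arntl*, *Nfil3*, *Gprin2*, *Osgin1*, *Fgf21*, *Ccdc92*, *Sox4*, *Npas2*, *E2f2* and *Dusp8*. The 10 largest falls included those of *Ciart*, *Rasd1*, *Nr1d2*, *Pck1*, *Dbp*, *Per3*, *Nr1d1*, *Pfkfb3* and *Plekhg6*, so that clock genes took 3 of the rises and 5 of the falls. With ZT 10 replicate 2 left out 330 genes were called, and with ZT 22 replicate 2 left out 312.

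Most genes of the core clock differed between the times. Of 17 tested core clock genes 10 were called (58.8%, against 2.82% of all genes), 4 higher at ZT 22 and 6 higher at ZT 10. *Arntl* (chr7:113207465-113314126, + strand), which encodes BMAL1, measured 2.23, 3.58, 5.57 and 4.17 CPM at ZT 10 and 58.2, 51.3, 50.5 and 50.4 CPM at ZT 22. Every ZT 22 sample was far above every ZT 10 sample, a 13.6-fold difference (log2 3.77, SE 0.27, adjusted p = 1.19e-10, edgeR). *Npas2*, the paralog of *Clock*, rose from 0.656, 1.99, 1.33 and 1.99 CPM to 8.41, 7.14, 6.25 and 5.51 CPM. These 4.68-fold higher levels at ZT 22 were again free of overlap (adjusted p = 3.30e-05, edgeR), although *Npas2* remained a low transcript. *Clock* itself differed much less, with 136, 157, 166 and 155 CPM at ZT 10 and 234, 183, 184 and 187 CPM at ZT 22. That 1.28-fold rise (adjusted p = 0.00911, edgeR) lay close to the threshold and was lost in 11 of 23 alternatives, among them leaving out ZT 10 replicate 1, 2 or 4 or ZT 22 replicate 1. *Cry1*, the late-phase repressor of BMAL1 and CLOCK, was 20.6, 15.9, 15.7 and 12.7 CPM at ZT 10 and 45.8, 46.4, 43.3 and 46.4 CPM at ZT 22. The ZT 22 samples of *Cry1* lay within a narrow band, 2.76-fold above ZT 10 (adjusted p = 4.54e-08, edgeR).

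The *Per* and *Nr1d* genes and *Ciart* were called in the other direction, higher at ZT 10. *Nr1d2*, encoding REV-ERBβ, measured 169, 178, 166 and 160 CPM at ZT 10 and 20.4, 17.6, 25.7 and 19.96 CPM at ZT 22, an 8.02-fold difference (adjusted p = 3.60e-09, edgeR). *Nr1d1*, encoding REV-ERBα, was 24.3, 64.7, 49.0 and 51.1 CPM at ZT 10 and 9.75, 7.003, 8.12 and 6.04 CPM at ZT 22. Replicate 1 was the lowest of its ZT 10 group and the highest of ZT 22, and the times still did not overlap (6.15-fold, adjusted p = 4.71e-08, edgeR). *Nr1d1* overlaps *Thra* on the opposite strand, and whether strand was used in counting is not given in the sources used here. *Ciart*, which encodes a further inhibitor of BMAL1 and CLOCK, fell 12.1-fold from 11.0, 21.9, 20.9 and 17.4 CPM to 1.07, 1.57, 1.38 and 1.84 CPM (adjusted p = 1.17e-10, edgeR). *Per3* fell 6.24-fold, from 153, 141, 112 and 120 CPM to 14.96, 21.8, 23.9 and 23.0 CPM (adjusted p = 4.44e-11, edgeR) and without overlap. *Per1* and *Per2* differed less: *Per1* was 39.2 to 51.0 CPM at ZT 10 and 11.0 to 25.7 CPM at ZT 22 (2.59-fold, adjusted p = 0.00491, edgeR). *Per2* was 68.5, 35.7, 35.1 and 35.3 CPM at ZT 10 and 10.01, 24.4, 16.1 and 17.3 CPM at ZT 22 (2.53-fold, adjusted p = 0.00846, edgeR). The *Per1* and *Per2* calls were lost in 11 and 12 of 23 alternatives. Leaving out any single ZT 10 replicate ended the call of *Per2*, as did leaving out ZT 22 replicate 1, 3 or 4, and the call of *Per1* ended without ZT 10 replicate 1, 2 or 4 or ZT 22 replicate 1, 2 or 3. *Rora* (log2 change -0.41) and *Cry2* (0.32) were not called, nor were the genes of the kinases and ligase subunits that set PER and CRY stability, *Csnk1d* (0.00), *Csnk1e* (-0.07), *Fbxl21* (0.29) and *Btrc* (-0.14).

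**Figure D1:**
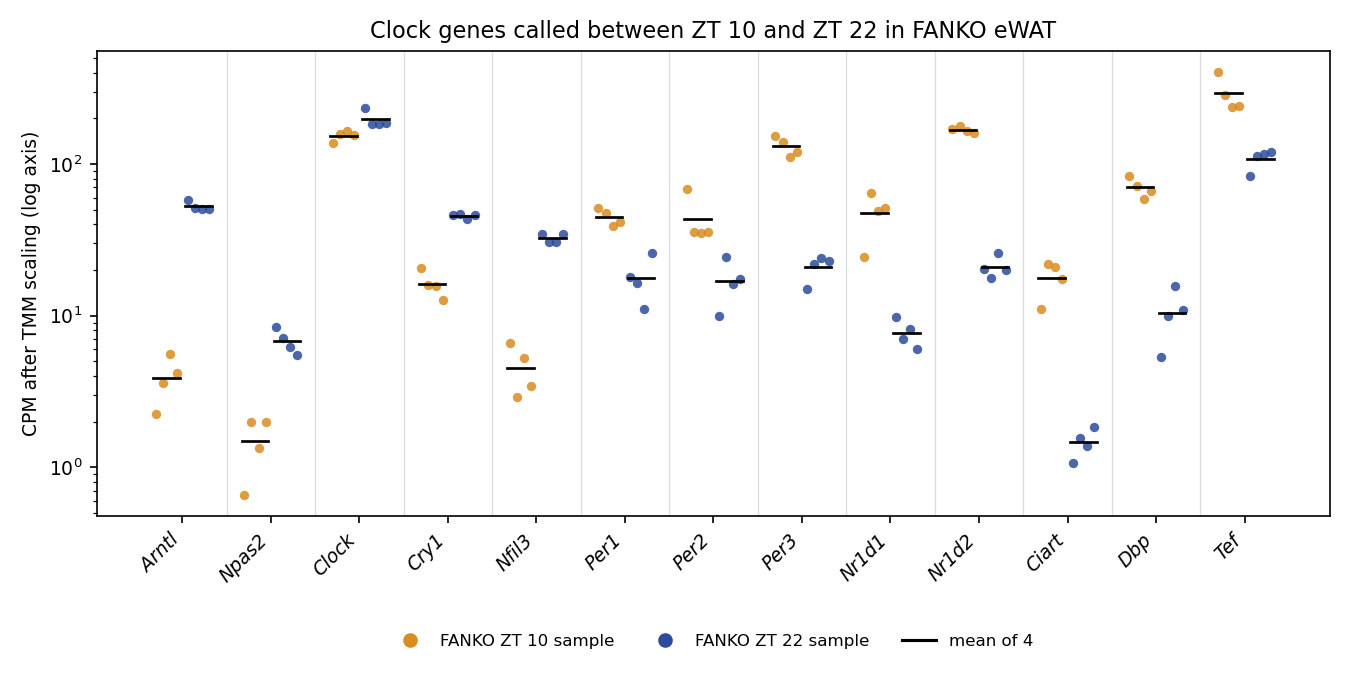
CPM after TMM scaling (log axis) of clock and clock output genes in each FANKO eWAT sample at ZT 10 and ZT 22, with each point 1 sample and the bar the group mean. *Arntl*, *Npas2*, *Cry1* and *Nfil3* were higher in every ZT 22 sample, whereas *Nr1d1*, *Nr1d2*, *Per3*, *Ciart*, *Dbp* and *Tef* were higher in every ZT 10 sample.

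The promoters of some of these genes hold the letters of the clock elements. Those of *Clock*, *Npas2*, *Nr1d1*, *Nr1d2* and *Dbp* held none of the 3 motifs described next, and over the named genes that were called 14 of 45 promoters held any. The 250 bases before each RefSeq start (GRCm38.p6) were searched on both strands for 3 motifs. These included the E-box CACGTG, bound by BMAL1 with CLOCK, and the D-box TTANGTAA, bound by PAR bZIP factors and NFIL3. The last was TNGGTCA, called the REV-ERB pattern here. It is looser than the REV-ERB and ROR element, since any base could stand at N, and reads TGACCNA on the opposite strand. The stretches below, shown because they carry the matches of the clock genes called here, run 5′ to 3′ on the strand of the gene with 20 bases on either side where the searched window allowed, and capitals mark the motif letters. *Arntl* (chr7:113207245-113207310, + strand) and *Nfil3* (chr13:52981040-52981071, - strand), both higher at ZT 22, held the REV-ERB pattern only. *Cry1* (chr10:85185089-85185134, - strand) held 1 E-box. Of the genes higher at ZT 10, *Ciart* (chr3:95882247-95882364, - strand) held 3 E-boxes and *Per1* (chr11:69098763-69098808, + strand) held 1. The *Per1* stretch lies inside the gene, whose annotated span begins at chr11:69095217. *Per2* was not among the 45 genes matched to a promoter. The *Tef* start shown (chr15:81811175-81811301, + strand) held 1 E-box and 1 REV-ERB pattern. Another *Tef* start (chr15:81802526-81802571, + strand), not printed, held 1 E-box. *Per3* (chr4:151044757-151044890, - strand) held 2 D-boxes and 1 REV-ERB pattern. None of the printed motifs overlapped another.
Arntl: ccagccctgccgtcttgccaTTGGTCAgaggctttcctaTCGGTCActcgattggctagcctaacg
Nfil3: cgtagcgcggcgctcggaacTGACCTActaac
Cry1: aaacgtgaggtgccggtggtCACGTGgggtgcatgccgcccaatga
Ciart: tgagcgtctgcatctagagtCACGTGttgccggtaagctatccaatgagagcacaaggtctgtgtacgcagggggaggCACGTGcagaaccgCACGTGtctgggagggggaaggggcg
Per1: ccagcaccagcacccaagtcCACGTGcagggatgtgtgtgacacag
Tef: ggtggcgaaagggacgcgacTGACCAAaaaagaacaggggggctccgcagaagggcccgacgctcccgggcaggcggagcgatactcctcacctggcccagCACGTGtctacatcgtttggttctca
Per3: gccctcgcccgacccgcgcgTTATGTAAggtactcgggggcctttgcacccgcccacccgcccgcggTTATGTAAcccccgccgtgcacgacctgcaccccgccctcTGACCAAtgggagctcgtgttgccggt

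Over all called genes with a RefSeq promoter, E-box letters were found in 30 of 212 genes higher at ZT 22 (14.2%) and in 31 of 199 higher at ZT 10 (15.6%), against 9.36% of 12325 tested genes. D-box letters were found in 1 (0.472%) and 7 (3.52%), against 1.78%. REV-ERB pattern letters were found in 19 (8.96%) and 22 (11.1%), against 1233 of the 12325. These matches describe letters in a window and are not measured binding sites.

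Among 13 tested clock output genes 3 were called (23.1%, against 2.82% of all genes). *Dbp* (chr7:45705088-45710203, + strand), encoding the PAR bZIP activator DBP, measured 83.7, 71.6, 59.2 and 66.5 CPM at ZT 10 and 5.34, 9.95, 15.7 and 10.9 CPM at ZT 22. All ZT 10 samples were higher, by 6.52-fold in the fit (log2 -2.70, SE 0.20, adjusted p = 2.60e-10, edgeR). *Tef* was 405, 286, 236 and 243 CPM at ZT 10 and 83.3, 112, 117 and 120 CPM at ZT 22 (2.71-fold, adjusted p = 1.52e-07, edgeR). *Nfil3*, whose product represses the same D-boxes, went the other way, from 6.56, 2.91, 5.27 and 3.44 CPM to 34.3, 30.7, 30.5 and 34.4 CPM (7.003-fold higher at ZT 22, adjusted p = 1.52e-07, edgeR). *Hlf*, the remaining PAR bZIP gene, had a log2 change of -0.58 that was not called (adjusted p = 0.0409, edgeR). The other 9 output genes were not called either, with log2 changes of -0.10 for *Bhlhe40*, -0.24 for *Bhlhe41*, -0.23 for *Wee1*, -0.42 for *Usp2*, -0.13 for *Klf10*, -0.40 for *Klf9*, 0.46 for *Ppp1r3c*, -0.42 for *Tsc22d3* and 0.68 for *Cdkn1a*. Of 21 tested glucocorticoid-responsive genes 2 were called (9.52%), *Per1* and *Angptl4*, both higher at ZT 10.

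The called genes of lipid storage and mobilisation were all higher at ZT 10. *Pck1* (chr2:173153048-173159273, + strand), the cytosolic PEPCK that supplies glycerol for re-esterification of fatty acids in fat, measured 1184, 1293, 828 and 1210 CPM at ZT 10 and 180, 106, 138 and 229 CPM at ZT 22. The times were far apart, a 6.93-fold difference (adjusted p = 4.64e-05, edgeR). It was 1 of 3 called among 26 tested triglyceride and lipid droplet genes (11.5%, against 2.82% of all genes). *Gpat3*, an acyltransferase of the first step of glycerolipid synthesis, was 96.0 to 139 CPM at ZT 10 and 41.0 to 65.9 CPM at ZT 22 (log2 change -1.01, adjusted p = 0.000233, edgeR). *Plin4*, a lipid droplet coat protein gene, was 2158 to 2861 CPM at ZT 10 and 1429 to 1779 CPM at ZT 22 (log2 change -0.62, adjusted p = 0.00327, edgeR).

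Of 21 tested genes of lipolysis and lipoprotein lipase control 5 were called (23.8%, against 2.82% of all genes), all higher at ZT 10. *Lipe*, hormone-sensitive lipase, measured 1549, 1611, 1206 and 1415 CPM at ZT 10 and 832, 913, 1079 and 928 CPM at ZT 22 (1.54-fold, adjusted p = 0.000455, edgeR). *Adrb3*, the adrenergic receptor through which catecholamines start lipolysis, was 275 to 375 CPM at ZT 10 and 177 to 222 CPM at ZT 22 (log2 change -0.67, adjusted p = 0.00143, edgeR). *Hcar1*, the lactate receptor that restrains lipolysis, fell as well, from 42.0 to 67.9 CPM to 17.9 to 35.5 CPM (log2 change -1.11, adjusted p = 0.00200, edgeR), as did *Npr3*, the natriuretic peptide clearance receptor, named after its values were seen (log2 change -1.23, adjusted p = 0.00882, edgeR). The members higher at ZT 10 thus included genes whose products promote lipolysis and genes whose products restrain it. *Pnpla2*, the triglyceride lipase ATGL, had a log2 change of 0.02 (SE 0.16). *Lpl* had a log2 change of -0.41 that was not called (adjusted p = 0.166, edgeR). *Angptl4* (chr17:33773750-33781830, - strand), the inhibitor of lipoprotein lipase, was the fifth called gene, with 118, 286, 247 and 338 CPM at ZT 10 and 108, 93.1, 152 and 124 CPM at ZT 22. ZT 10 replicate 1 lay among the ZT 22 samples, and this 2.07-fold difference (adjusted p = 0.00810, edgeR) was lost in 15 of 23 alternatives, including leaving out ZT 10 replicate 2, 3 or 4 or ZT 22 replicate 1, 2 or 4. The summed white adipocyte markers, *Lipe* among them, were 21540 to 26880 CPM at ZT 10 and 18190 to 22580 CPM at ZT 22, which overlapped. The part of adipocyte content in these changes was not tested.

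Of 22 tested fatty acid oxidation genes 2 were called (9.09%, against 2.82% of all genes). *Ppara*, the nuclear receptor that activates this pathway, was 24.3, 32.9, 24.2 and 19.0 CPM at ZT 10 and 7.97 to 15.2 CPM at ZT 22 (2.39-fold higher at ZT 10, adjusted p = 0.000152, edgeR). *Cpt1a*, which admits long-chain fatty acids to mitochondria, had a log2 change of -0.51 (adjusted p = 0.00780, edgeR), a call lost without any one of 7 of the 8 samples, ZT 22 replicate 3 being the exception. In the insulin and glucose list 2 of 27 were called (7.41%), in opposite directions. *Hk2*, an insulin-induced hexokinase, rose from 431, 294, 364 and 307 CPM to 614, 746, 630 and 644 CPM (1.89-fold, adjusted p = 0.00318, edgeR). *Pfkfb3*, which makes the activator of phosphofructokinase, fell from 406, 565, 422 and 494 CPM to 106, 109, 91.8 and 107 CPM (4.56-fold, adjusted p = 1.99e-07, edgeR). The *Pfkfb3* levels at ZT 22 sat close together, while the *Hk2* call ended without ZT 10 replicate 2 or 4 or ZT 22 replicate 2.

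Genes of secreted factors and signalling proteins were called in both directions. *Nrg4*, an adipokine that acts on liver, was 187 to 221 CPM at ZT 10 and 83.6 to 122 CPM at ZT 22 (log2 change -0.96, adjusted p = 5.35e-05, edgeR). *Adipoq* (log2 change -0.19, adjusted p = 0.508, edgeR) and *Lep* (-0.22, adjusted p = 0.801) were not called. *Fgf21*, a hormone released under nutrient and mitochondrial stress, rose from 2.36, 1.84, 3.33 and 3.08 CPM to 12.7, 20.9, 9.32 and 18.8 CPM (5.91-fold, adjusted p = 8.93e-05, edgeR). Its ZT 22 samples were all above ZT 10 but spread widely. *Rasd1*, a small GTPase gene induced by glucocorticoids, fell from 107, 77.4, 50.9 and 74.5 CPM to 7.75, 9.91, 9.44 and 7.35 CPM (8.81-fold, adjusted p = 1.52e-07, edgeR).

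**Figure D2:**
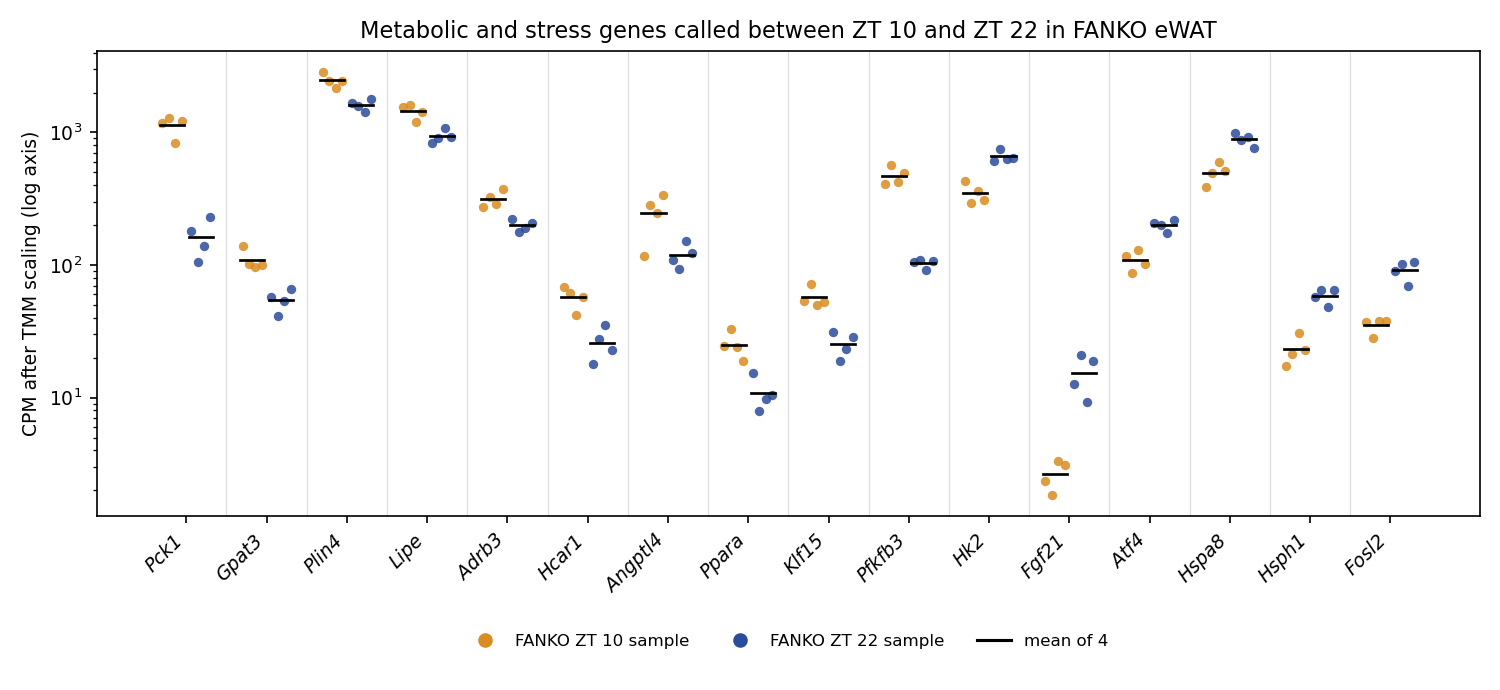
CPM after TMM scaling (log axis) of metabolic, secreted and stress genes in each FANKO eWAT sample at ZT 10 and ZT 22, with each point 1 sample and the bar the group mean. *Angptl4* is the gene whose times overlapped, with ZT 10 replicate 1 at 118 CPM among ZT 22 samples of 93.1 to 152 CPM.

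Adipocyte transcription factors that were called were also higher at ZT 10, 3 of 19 tested (15.8%, against 2.82% of all genes). *Klf15*, which controls amino acid and lipid metabolism in fasting, was 53.6, 71.8, 50.2 and 52.7 CPM at ZT 10 and 31.4, 18.8, 23.1 and 28.5 CPM at ZT 22 (2.29-fold, adjusted p = 3.64e-05, edgeR). *Stat5a*, which transmits growth hormone and prolactin signals, had a log2 change of -0.59 (adjusted p = 0.000305, edgeR). *Cebpa*, a factor that maintains the adipocyte state, was 449 to 507 CPM at ZT 10 and 312 to 372 CPM at ZT 22 (log2 change -0.50, adjusted p = 0.00154, edgeR). In WT eWAT 3 other genes of this list were called, *Cebpb*, *Rxrg* and *Nr1h3*, and were higher at ZT 22. The WT log2 changes of *Klf15*, *Stat5a* and *Cebpa* were -0.23, -0.27 and -0.19, none of them called. The median log2 change of the list was -0.13 in FANKO and -0.13 in WT, and the difference between genotypes was called for 0 of its genes. Without ZT 22 replicates 2 and 3, the samples with the most epididymis markers, *Pck1*, *Gpat3*, *Plin4*, *Adrb3*, *Ppara*, *Cpt1a*, *Hk2*, *Angptl4*, *Klf15*, *Stat5a* and *Cebpa* were no longer called with the 2 remaining ZT 22 samples, whereas *Lipe*, *Hcar1*, *Pfkfb3* and *Nrg4* still were. The log2 changes of the genes lost kept their sign and much of their size, for example -2.46 against -2.79 for *Pck1*, -0.93 against -1.19 for *Klf15*, -0.60 against -0.59 for *Stat5a* and -0.51 against -0.50 for *Cebpa*.

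The stress genes that were called were higher at ZT 22, apart from 1 cold-inducible gene. In the heat shock list 2 of 31 tested genes were called (6.45%, against 2.82% of all genes). *Hspa8*, the constitutive HSP70 chaperone, rose from 387, 491, 595 and 515 CPM to 996, 877, 927 and 765 CPM (1.79-fold, adjusted p = 0.000181, edgeR). *Hsph1*, which recharges HSP70 with nucleotide, rose from 17.4, 21.2, 30.9 and 23.0 CPM to 57.4, 64.3, 48.1 and 64.7 CPM (2.53-fold, adjusted p = 0.000842, edgeR). Of 24 endoplasmic reticulum stress genes 3 were called (12.5%). *Atf4*, the activator of the integrated stress response, was 87.5 to 131 CPM at ZT 10 and 173 to 217 CPM at ZT 22 (1.82-fold, adjusted p = 7.11e-05, edgeR). *Dnajb9*, a co-chaperone of the endoplasmic reticulum, had a log2 change of 0.79 (adjusted p = 0.000765, edgeR). *Creld2* had a log2 change of 0.85 (adjusted p = 0.00743, edgeR) that was lost in 13 of 23 alternatives. *Rbm3*, an RNA-binding protein gene induced by cold, was the 1 of 3 cold-inducible genes called and was lower at ZT 22 (log2 change -0.53, adjusted p = 0.00111, edgeR). *Osgin1*, an oxidative stress gene outside these lists, was among the 10 largest rises, from 3.75 to 5.18 CPM at ZT 10 to 11.8, 26.2, 32.8 and 31.6 CPM at ZT 22 (5.92-fold, adjusted p = 4.24e-07, edgeR).

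The lists of immediate early, proliferation, matrix, chemokine and ribosome biogenesis genes held 1 or 2 called genes each, where 2.82% of all genes were called. *Fosl2*, an AP-1 subunit gene, was 37.0, 27.9, 37.7 and 38.1 CPM at ZT 10 and 89.5, 102, 69.9 and 106 CPM at ZT 22 (2.62-fold, adjusted p = 4.71e-08, edgeR), and with *Jun* (log2 change 0.81, adjusted p = 0.00423) made up the 2 called of 22 immediate early genes (9.09%). *Sox4*, a developmental transcription factor gene, rose from 4.98, 3.29, 3.39 and 3.08 CPM to 19.2, 19.4, 15.1 and 18.2 CPM (4.80-fold, adjusted p = 1.65e-09, edgeR). *E2f2*, a cell cycle activator, rose from 1.77, 3.58, 3.03 and 3.99 CPM to 15.6, 14.6, 13.3 and 11.0 CPM (adjusted p = 5.45e-05, edgeR). It was the 1 called of 30 tested proliferation genes (3.33%), a share near that of all genes. *Gprin2*, a neurite outgrowth gene, rose from 0.484 to 1.64 CPM at ZT 10 to 5.38 to 8.34 CPM at ZT 22 (log2 change 2.80), *Ccdc92* rose from 6.03, 11.7, 10.3 and 12.7 CPM to 27.8, 59.7, 62.0 and 52.9 CPM (2.34), and *Dusp8*, a phosphatase gene of the JNK and p38 kinases, rose by 1.84 on the log2 scale (adjusted p = 1.31e-06, 0.000324 and 4.52e-06, edgeR). *Plekhg6*, a RhoA exchange factor gene, fell from 25.2, 46.6, 35.9 and 45.5 CPM to between 7.69 and 12.5 CPM. *Timp3*, an inhibitor of matrix metalloproteinases, fell from 228 to 256 CPM at ZT 10 to 130 to 155 CPM at ZT 22 (log2 change -0.76, adjusted p = 2.15e-05, edgeR), while the matrix metalloproteinase gene *Mmp14* rose by 0.50 on the log2 scale (adjusted p = 0.00614). These were the 2 called of 32 collagen and matrix genes (6.25%). The chemokine genes *Cxcl12* (log2 change -0.56) and *Ccl11* (-0.80) were lower at ZT 22 (adjusted p = 0.00240 and 0.00317, edgeR), 2 of 27 tested (7.41%), and *Dkc1*, a pseudouridine synthase gene, was the 1 called of 28 ribosome biogenesis genes (3.57%, log2 change -0.42, adjusted p = 0.00215, edgeR).

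**Figure D3:**
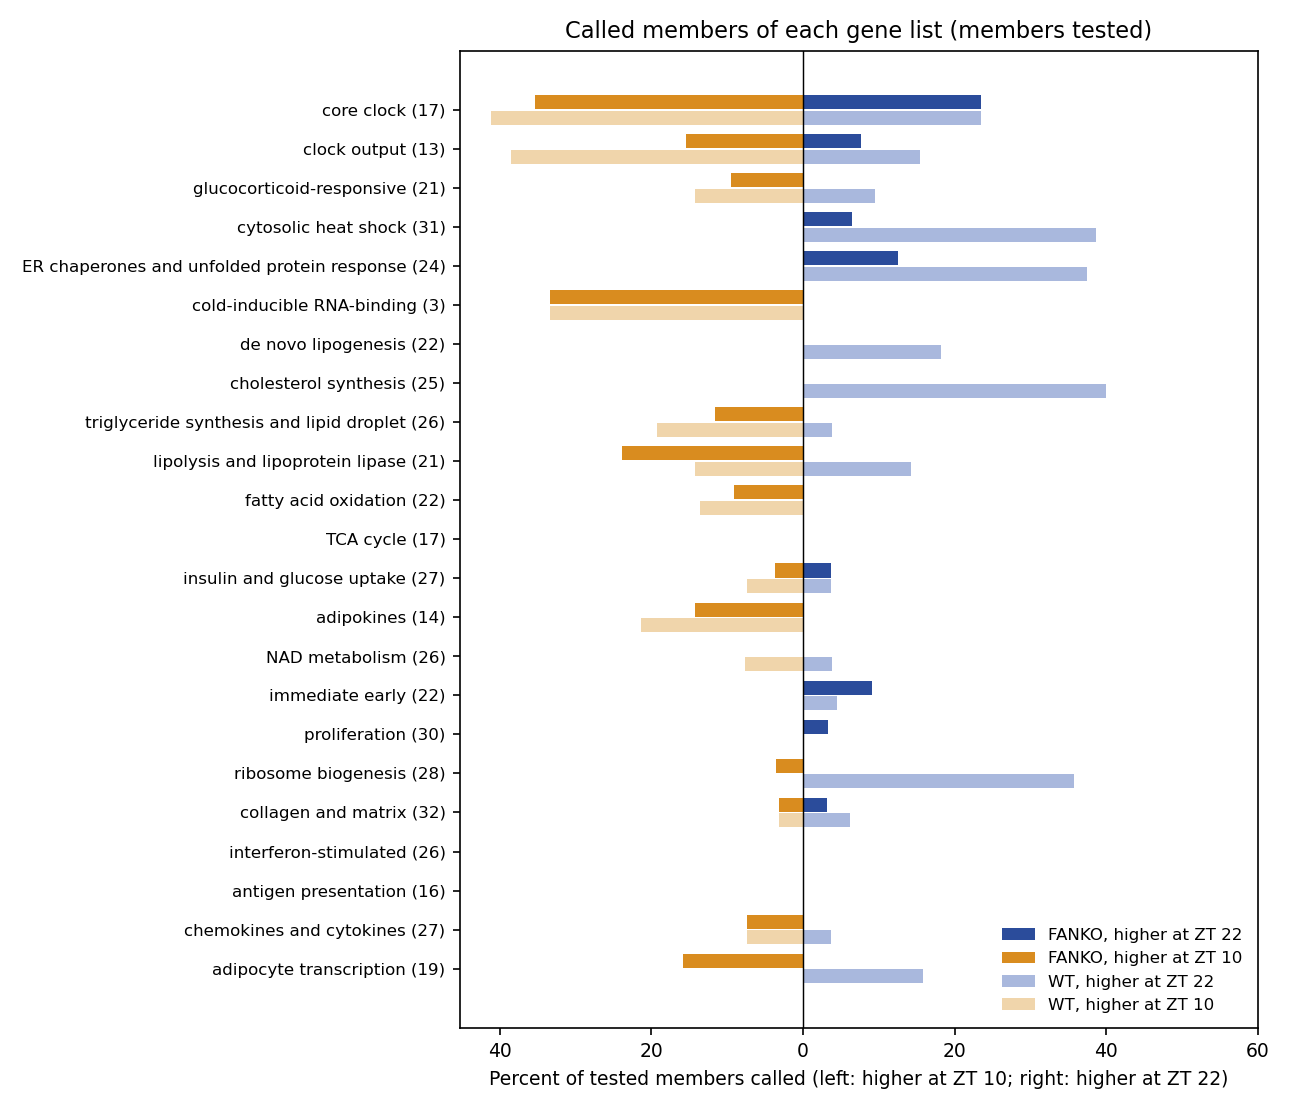
Percent of the tested genes of each list (number tested in brackets) called between ZT 10 and ZT 22 (edgeR, adjusted p below 0.01) in FANKO eWAT (dark bars) and WT eWAT (pale bars), to the right for genes higher at ZT 22 and to the left for genes higher at ZT 10. The core clock list held 4 FANKO calls to the right and 6 to the left, and the cholesterol list held bars for WT only, with 10 of 25 genes.

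Several metabolic lists held no called gene. No gene was called in FANKO eWAT by edgeR among 22 lipogenesis, 25 cholesterol synthesis, 17 tricarboxylic acid cycle and 26 NAD genes. Nor was any of 26 interferon or 16 antigen presentation genes. Over all genes 2.82% were called, so a list of this size without a call is near that share. An unadjusted p below 0.05 (edgeR) was met by 1 lipogenesis gene, 1 cholesterol gene, 1 interferon gene and 3 NAD genes. It was met by 0 genes of the other lists, and by 3405 of all 19059 genes. DESeq2 and limma-voom called none of the genes of these lists either, except for 1 NAD gene with DESeq2. The lowest p of the NAD list was that of *Slc25a51*, which encodes a mitochondrial NAD+ transporter, with 166, 183, 162 and 159.5 CPM at ZT 10 and 206, 213, 202 and 223 CPM at ZT 22. Those samples did not overlap, but the log2 change of 0.33 was not called (SE 0.09, adjusted p = 0.0259, edgeR), and it was 0.40 in WT. In WT eWAT the same comparison called 10 cholesterol genes and 4 lipogenesis genes, all higher at ZT 22, where 2.92% of all genes were called in that direction. WT calls higher at ZT 22 were not limited to these lists. They also took 12 of 31 heat shock, 9 of 24 endoplasmic reticulum stress and 10 of 28 ribosome biogenesis genes. The FANKO calls in that direction were 2, 3 and 0. The median log2 change of the cholesterol list was 0.06 in FANKO and 0.81 in WT. *Hmgcs1*, the first committed enzyme gene of that pathway, illustrates the list and was chosen after its values were seen. It measured 175, 196, 204 and 213 CPM at ZT 10 and 229, 190, 188 and 232 CPM at ZT 22 in FANKO eWAT, which overlapped (log2 change 0.09, SE 0.18). In WT it averaged 168 CPM at ZT 10 and 348 CPM at ZT 22 (log2 change 1.05, adjusted p = 0.000290, edgeR). The difference of the 2 changes for *Hmgcs1* was not called over all genes (adjusted p = 0.0744, edgeR). Across the list 15 of 25 genes had an unadjusted p below 0.05 for a lower change in FANKO, against 7.22% of all genes, and no single one was called. An unadjusted p below 0.05 for a lower change in FANKO was also met by 15 of 31 heat shock, 13 of 28 ribosome biogenesis, 6 of 19 adipocyte transcription, 4 of 14 adipokine, 6 of 24 endoplasmic reticulum stress and 4 of 22 lipogenesis genes, with none called, and by 6 of 21 lipolysis genes, with 1 called.

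In WT eWAT 1020 genes were called between the same times (5.35%), with 2.43% of all genes higher at ZT 10. Called in both genotypes were 189 genes, 188 of them in 1 direction, which is 35.2% of the FANKO calls and 18.5% of the WT calls. Of the 272 genes higher at ZT 22 in FANKO, 239 had the same sign in WT and 86 were also called there, none in the opposite direction. Their median log2 change was 0.65 in FANKO and 0.30 in WT. Of the 265 genes higher at ZT 10, 238 had the same sign in WT and 102 were called there in that direction, with 1 in the opposite one, and their median was -0.72 in FANKO and -0.44 in WT. The FANKO values chose these genes, so the smaller WT medians are a description. A change called in 1 genotype alone was read as different only where the difference itself was called.

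The difference of the change between FANKO and WT was called for 47 genes (0.247%), 31 with a lower and 16 with a higher log2 change in FANKO. Of these, 35 had log2 changes of opposite sign in the 2 genotypes, and 26 had the smaller absolute change in FANKO. Within the clock, *Dbp* and *Clock* were called. *Dbp* averaged 96.1 ± 4.67 CPM at ZT 10 and 4.15 ± 0.703 CPM at ZT 22 in WT, a log2 change of -4.53 against -2.70 in FANKO (difference 1.83, adjusted p = 0.00145, edgeR). The difference stayed between 1.42 and 2.01 in 21 alternatives but was not called with the skeletal muscle covariate (adjusted p = 0.0112) or without ZT 22 replicates 2 and 3 (adjusted p = 0.0495). The FANKO mean was thus lower than WT at ZT 10 and higher than WT at ZT 22. *Clock* rose by 1.04 on the log2 scale in WT and by 0.36 in FANKO (difference -0.69, adjusted p = 0.00418, edgeR). This difference was lost in 9 of 21 alternatives. Among them were leaving out ZT 10 replicate 2, 3 or 4, ZT 22 replicate 2 or 4, or ZT 22 replicates 2 and 3 together. The others were the epididymis covariate, the skeletal muscle covariate and library size alone. For *Arntl* the log2 changes were 4.94 in WT and 3.77 in FANKO (difference -1.18, adjusted p = 0.178, edgeR). For *Npas2* they were 4.36 and 2.23 (difference -2.13, adjusted p = 0.0318), for *Nr1d1* -4.02 and -2.62 (1.40, adjusted p = 0.0511) and for *Nr1d2* -4.08 and -3.00 (1.08, adjusted p = 0.140, edgeR), none of which was called. *Per3* changed by -2.82 in WT and -2.64 in FANKO.

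**Figure D4:**
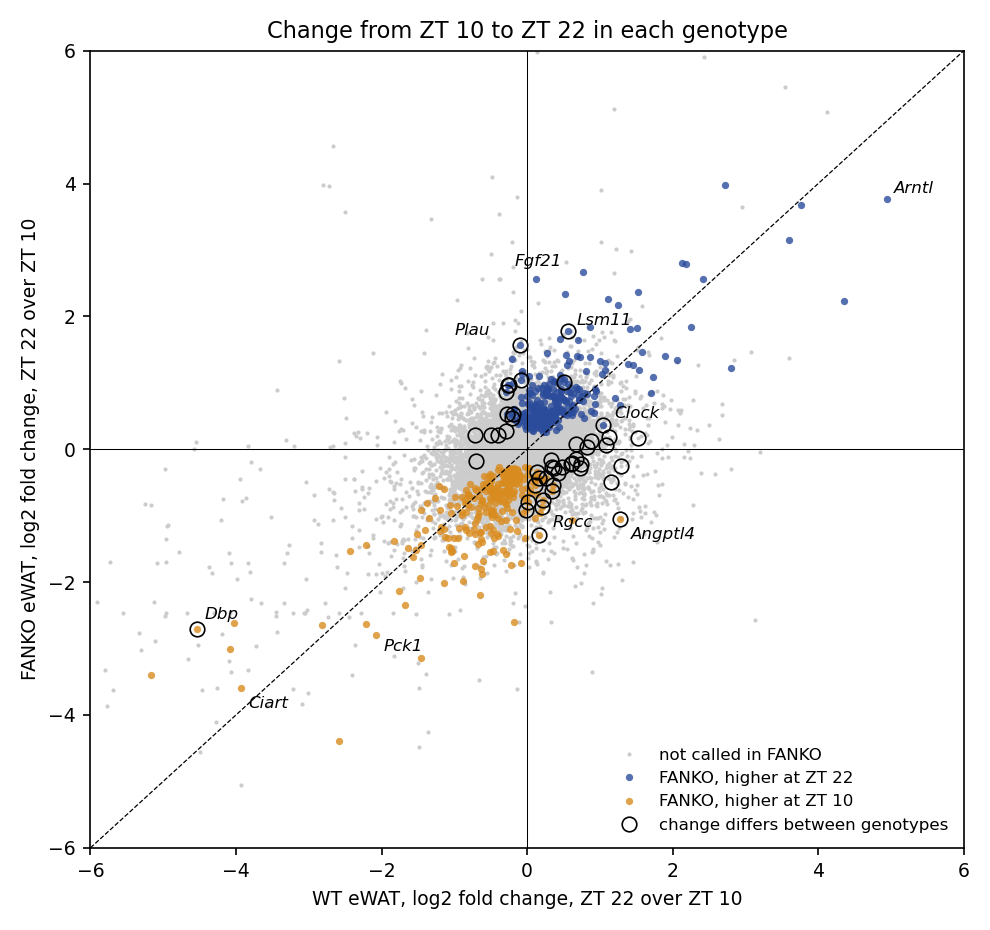
Log2 change from ZT 10 to ZT 22 of each tested gene in WT eWAT (x axis) and in FANKO eWAT (y axis), with genes called in FANKO in colour, genes whose difference was called circled, equal change on the dashed line, and 14 uncalled genes outside the axes. *Dbp* lies at -4.53 in WT and -2.70 in FANKO, and *Plau* at -0.10 in WT and 1.57 in FANKO.

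The 6 smallest p values of the difference belonged to genes outside the clock. *Plau* (chr14:20836660-20843385, + strand), encoding the plasminogen activator urokinase, measured 49.5, 45.01, 57.4 and 41.3 CPM at ZT 10 and 138, 146, 146 and 146 CPM at ZT 22 in FANKO eWAT. The ZT 22 samples were nearly equal and 2.97-fold above ZT 10 (adjusted p = 1.53e-08, edgeR). In WT *Plau* averaged 78.5 ± 4.43 and 73.0 ± 6.55 CPM (SD, n = 4 each), a log2 change of -0.10 and a difference of 1.67 (SE 0.20, adjusted p = 4.90e-05, edgeR). *Lsm11*, a subunit gene of the complex that processes histone mRNA, was 8.92, 7.51, 10.1 and 8.70 CPM at ZT 10 and 30.4, 33.3, 27.2 and 29.5 CPM at ZT 22 (3.43-fold), against 5.81 ± 0.485 and 8.55 ± 1.03 CPM in WT (difference 1.22, adjusted p = 0.000836, edgeR).

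In 4 of these 6 the FANKO change was the lower one. *Rgcc*, a cell cycle and complement response gene, fell from 147, 163, 144 and 156 CPM to 72.4, 79.9, 94.2 and 86.3 CPM in FANKO, with a log2 change of 0.20 in WT (difference -1.08, adjusted p = 0.000196, edgeR). *Dram1*, a lysosomal autophagy gene, fell from 187 to 216 CPM at ZT 10 to 123 to 143 CPM at ZT 22, with a log2 change of 0.34 in WT (difference -0.97, adjusted p = 0.000211, edgeR). *2810004N23Rik*, an uncharacterised gene, was not called in FANKO (log2 change -0.21, adjusted p = 0.170) but its WT change was 0.61 (difference -0.82, adjusted p = 0.000754, edgeR). *Angptl4* rose 1.28 on the log2 scale in WT, from 140 ± 27.4 to 338 ± 83.3 CPM, while it fell by 1.05 in FANKO (difference -2.32, adjusted p = 0.000836, edgeR). With skeletal muscle markers as a covariate the differences of *Angptl4* (adjusted p = 0.0305), *Lsm11* (0.0229), *Dram1* (0.0150) and *2810004N23Rik* (0.0208) were no longer called, while those of *Plau* and *Rgcc* were, and 2 genes in all were called instead of 47. The sign of each stayed the same. In WT those markers summed to 10.2 to 15.4 CPM at ZT 10, below the FANKO range. At ZT 22 they summed to 21.03 to 95.75 CPM in WT, which overlapped the FANKO range. The covariate thus separated the times in WT, and the part of this separation in the lost calls was not tested. *Acvr1c*, chosen after its values were seen, was 295, 385, 330 and 316 CPM at ZT 10 and 167, 105, 113 and 159 CPM at ZT 22 in FANKO and differed as well (log2 change -1.29 in FANKO and 0.16 in WT, adjusted p of the difference 0.00816, edgeR). *Fgf21* was near 0 in WT, averaging 0.323 ± 0.146 CPM at ZT 10 and 0.367 ± 0.334 CPM at ZT 22, and its difference was not called (2.43, adjusted p = 0.135, edgeR).

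The FANKO samples of ZT 6 and ZT 18, which are not in the contrast that called these genes, place the pair of times within the day. Of the 272 genes higher at ZT 22, 228 had a positive log2 difference of ZT 18 from ZT 6 (median 0.25), of which 66 were called in that direction, and 2 of the 272 were called in the opposite one. Of the 265 higher at ZT 10, 221 had a negative difference (median -0.34), of which 82 were called, and 1 was called in the opposite direction. Over all genes 1.83% were called higher at ZT 18 and 2.59% higher at ZT 6. *Arntl* averaged 16.2 ± 2.41, 3.89 ± 1.39, 32.3 ± 3.93 and 52.6 ± 3.76 CPM at ZT 6, 10, 18 and 22 (SD, n = 4 each), so that its lowest and highest means were those of ZT 10 and ZT 22. *Nr1d1* averaged 68.5 ± 14.0, 47.3 ± 16.8, 3.78 ± 0.530 and 7.73 ± 1.59 CPM, with its highest mean at ZT 6 and its lowest at ZT 18. *Dbp* averaged 36.8 ± 6.45, 70.2 ± 10.3, 20.2 ± 4.19 and 10.47 ± 4.24 CPM, and the FANKO mean was below the WT mean at ZT 6 and ZT 10 and above it at ZT 18 and ZT 22, where the WT means were 46.1 ± 4.61, 96.1 ± 4.67, 8.03 ± 2.06 and 4.15 ± 0.703 CPM in order of time. *Pck1* averaged 820 ± 216, 1129 ± 206, 486 ± 166 and 163 ± 53.3 CPM. *Angptl4* was highest at ZT 6 in FANKO, at 529 ± 137, 247 ± 94.0, 82.6 ± 19.3 and 119 ± 25.1 CPM, and highest at ZT 22 in WT, at 244 ± 35.1, 140 ± 27.4, 304 ± 71.9 and 338 ± 83.3 CPM. *Plau* was 58.0 ± 16.7, 48.3 ± 6.92, 107 ± 10.3 and 144 ± 4.13 CPM in FANKO and between 73.0 and 81.2 CPM in WT at all 4 times.

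**Figure D5:**
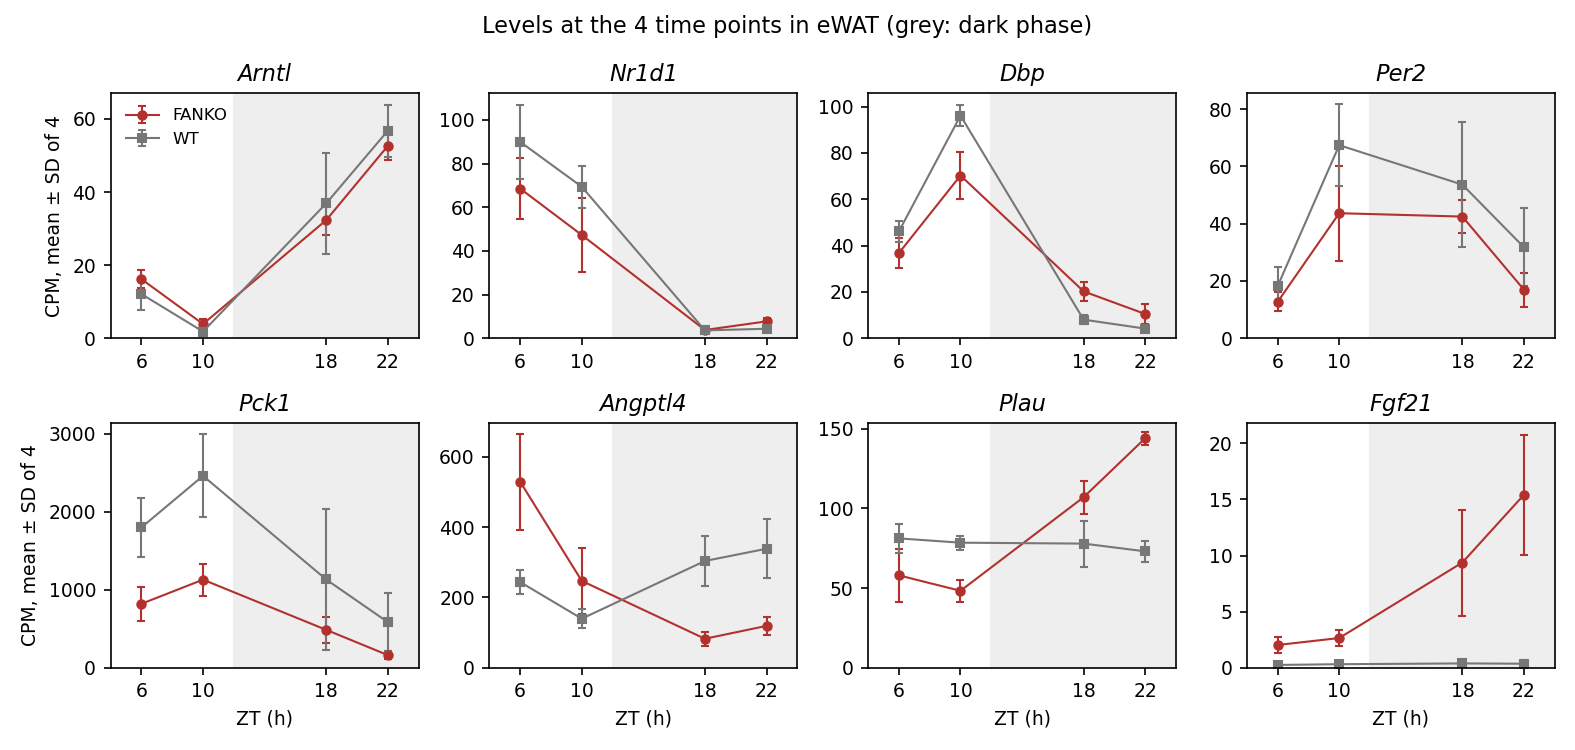
Mean CPM after TMM scaling of selected genes at ZT 6, 10, 18 and 22 in FANKO and WT eWAT, with error bars of 1 SD over 4 samples. *Arntl* has its lowest mean at ZT 10 and its highest at ZT 22 in both genotypes, whereas *Angptl4* has its highest mean at ZT 6 in FANKO and at ZT 22 in WT.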

How the data were processed

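RNA of the samples was prepared as stranded, ribosomal RNA-depleted total RNA libraries. The authors aligned paired reads with STAR 2.5.3a to GRCm38.p5 and deposited raw counts per gene made with featureCounts 1.5.3; the strand and multimapping settings are not given in the sources used here. The table held 52636 identifiers, of which 52489 matched a GENCODE symbol and 11545 had no count. Depth was 6117343 to 22855470 counts in the 8 samples, which limits precision for low genes.

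One model of 8 group means (2 genotypes, 4 times) over 32 eWAT samples was fitted with edgeR 4.0.16 in R 4.3.3 (quasi-likelihood, TMM, filterByExpr with minimum count 10 and minimum total 15). Differences of FANKO and WT changes were contrasts of that model. The script was tested on simulated data. No 2 libraries of a group were duplicates (chi-square per degree of freedom 6.22 to 49.7). Groups came from the labels. Samples and gene lists were chosen with earlier results of these data known. Named genes were *Nampt*, all tested clock and clock output genes, the 10 largest changes per direction with a mean log2 CPM of at least 1, up to 4 called members per list and the 6 smallest p values of the difference. The closing section gives the alternatives. Some genes that this rule names are not reported here.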

Additional observations from a re-analysis of the deposited data

Results flagged for a closer look

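In 12 of 148 checks of a named gene in a group of 4 samples, the highest or lowest sample stood apart from the others. Chance gives about 1 in 20 for independent checks of normally distributed values. These checks shared the same 8 samples, so their count cannot be set against that rate. In ZT 22 replicate 1, *Arntl* was 58.2 CPM (others 50.4 to 51.3), *Clock* 234 (183 to 187), *Usp2* 10.7 (16.7 to 17.2) and *Plau* 138 (others all at 146). In ZT 10 replicate 1, *Per2* was 68.5 CPM (others 35.1 to 35.7), *Sox4* 4.98 (3.08 to 3.39) and *Gpat3* 139 (96.0 to 101). In ZT 10 replicate 2, *Fosl2* was 28.0 CPM (37.0 to 38.1) and *Klf15* 71.8 (50.2 to 53.6). In ZT 10 replicate 4, *Mmp14* was 17.6 CPM (15.7 to 16.05). In ZT 22 replicate 3, *Pfkfb3* was 91.8 CPM (106 to 109) and *2810004N23Rik* 38.1 (30.98 to 32.2).

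For 8 named genes the change from ZT 10 to ZT 22 differed between FANKO and WT by edgeR's test of the difference. The log2 changes were 0.36 in FANKO and 1.04 in WT for *Clock* (difference -0.69), -2.70 and -4.53 for *Dbp* (1.83), and -1.05 and 1.28 for *Angptl4* (-2.32). They were 1.57 and -0.10 for *Plau* (1.67), 1.78 and 0.56 for *Lsm11* (1.22), -0.87 and 0.20 for *Rgcc* (-1.08), -0.63 and 0.34 for *Dram1* (-0.97), and -0.21 and 0.61 for *2810004N23Rik* (-0.82).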

How the results depend on the processing

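No called value changed sign under the alternatives run, 23 for the FANKO changes and 21 for the differences from WT, and 32 of the 55 named genes that were called stayed called under each of them. Signs of values not called did change, for the log2 changes of *Csnk1d*, *Csnk1e*, *Bhlhe40* and *Usp2* and the differences of *Per2*, *Cry1*, *Bhlhe40*, *Usp2* and *Ppp1r3c*. The difference of *Rgcc* was not called in the fit of all 64 samples (adjusted p = 0.0284) and that of *2810004N23Rik* not with library size alone. The 537 calls became 1142 at an adjusted p below 0.05 (592 higher at ZT 22, 550 higher at ZT 10), and with scaling by library size alone 158 genes instead of 265 were higher at ZT 10 (60.2% of calls then higher at ZT 22, against 50.65%). Leaving out 1 of the 8 samples gave 312 to 473 calls, with 186 to 265 higher at ZT 22 and 125 to 208 higher at ZT 10; the last count was 144, 173 and 171 without ZT 10 replicates 2, 3 and 4 and 125 without ZT 22 replicate 2. Without ZT 22 replicates 2 and 3, a setting chosen after seeing the data, 190 genes were called (118 and 72), and 9 differences. The other settings gave 376 (epididymis covariate) to 749 calls (DESeq2). The 47 differences from WT became 169 at an adjusted p below 0.05, 159 with DESeq2, 21 with the epididymis covariate, 12 with library size alone and 2 with the skeletal muscle covariate. Without 1 sample they numbered 12 to 81: 81, 14, 12 and 16 without ZT 10 replicates 1 to 4, and 28, 15 and 21 without ZT 22 replicates 1, 2 and 4. The 1020 WT calls became 2047 at an adjusted p below 0.05 and 644 with the skeletal muscle covariate, and stayed at 938 to 1018 without any 1 FANKO sample. The cause of these shifts was not tested.

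Calls were also lost without single samples for *Creld2*, *Plin4*, *Hcar1*, *Dkc1* and *Mmp14* (ZT 10 replicate 1), *Creld2*, *Plin4*, *Hcar1*, *Jun*, *Dkc1* and *Mmp14* (ZT 10 replicate 2), *Creld2*, *Rbm3*, *Jun*, *Mmp14*, *Cxcl12* and *Ccl11* (ZT 10 replicate 3), *Adrb3*, *Jun*, *Dkc1*, *Cxcl12* and *Ccl11* (ZT 10 replicate 4), *Creld2*, *Hcar1*, *Cxcl12* and *Ccl11* (ZT 22 replicate 1), *Creld2*, *Rbm3*, *Plin4*, *Adrb3*, *Jun*, *Dkc1*, *Mmp14* and *Cebpa* (ZT 22 replicate 2), *Plin4*, *Mmp14* and *Cxcl12* (ZT 22 replicate 3) and *Hcar1*, *Jun*, *Dkc1*, *Mmp14*, *Ccl11* and *Cebpa* (ZT 22 replicate 4). Samples of ZT 10 and ZT 22 with the same replicate number did not deviate together (r = 0.0401, -0.00441, 0.0844 and -0.0121 across genes), so by this check the numbers are not taken to pair them; the mitochondrial share of counts was nonetheless highest in replicate 4 in 7 of the 8 eWAT groups, and the labels do not say what the number marks. With the replicate block 599 genes were called in FANKO, 517 of them shared with the 537, 1218 in WT, and 70 differences against 47.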
